A study of Mus musculus with 7 samples.

Results

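Label 6 is 1 of 19 numbered clusters that the authors assigned to the cells of the embryonic mouse dorsal forebrain, and its members are the cells that carry this number in the deposited table. It held 672 of 10261 cells, of which 621 came from embryonic day (E) 10.5, 41 from E12.5, 2 from the first E14.5 sample and 8 from E18.5. All samples came from CD-1 mice, an outbred stock, with no genotype or treatment given that differs between them, so that stage separates the groups: 1 sample each at E10.5, E12.5, E15.5, E16.5 and E18.5, and 2 at E14.5. Embryos of timed pregnant mice gave the tissue, papain separated its cells, and barcoded beads caught them one by one (Drop-seq), so that each mRNA is counted once through a unique molecular identifier (UMI). The number of embryos behind each sample was not given in the sources used here. Each stage other than E14.5 has 1 sample, and the authors' clusters were made from the same genes that are compared here, so no value below carries a test of a stage or of a label, and the intervals cover counting error only.

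The neocortex starts as a sheet of neuroepithelial cells that divide at the ventricle and enlarge the founder pool before most neurons are born. They then turn into radial glia, which keep the transcription factors Sox2 and Pax6 and gain glial genes such as Fabp7, a fatty acid binding protein, and Slc1a3, a glutamate transporter. In the mouse, Hmga2, a chromatin protein of the high mobility group, and Lin28b, which blocks maturation of let-7 microRNAs, are known for their high levels in early progenitors and for their decline with age.

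The E10.5 sample was sequenced as 2 libraries, named E10_1 and E10_2, which differed before any comparison. Label 6 cells had a median of 2892.5 UMIs in E10_1 and 5641 UMIs in E10_2. In E10_1, 122 of 422 label 6 cells had a barcode 1 base away from another cell's barcode, mostly at the last of its 12 bases, against 0 of 199 in E10_2. With such barcodes merged, E10_1 held 356 label 6 cells of 683. If several barcodes stand for 1 bead, counting intervals are too narrow. Over all libraries 4 barcodes occurred in more than 1 library, and 2 label 6 cells carried one of them. A doublet caller marked 9 label 6 cells.

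At E10.5, label 6 was the largest cluster, with 621 of 1172 cells or 53.0% (95% exact binomial interval 50.1 to 55.9%). Its share was 51.3% in E10_1 and 56.9% in E10_2. At E12.5 it was 1.54% of 2668 cells (1.10 to 2.08%), with 26 cells in one library and 15 in the other. At E18.5 the 8 cells made up 0.626% (0.271 to 1.23%). The first E14.5 sample had 0.0618%, and no cell was found in the second E14.5 sample, at E15.5 or at E16.5, where 3 cells would have been 0.592%, 0.296% and 0.775%. The cluster was thus present in number at E10.5 and at or near the limit of detection from E14.5 to E16.5.

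**Figure D1:**
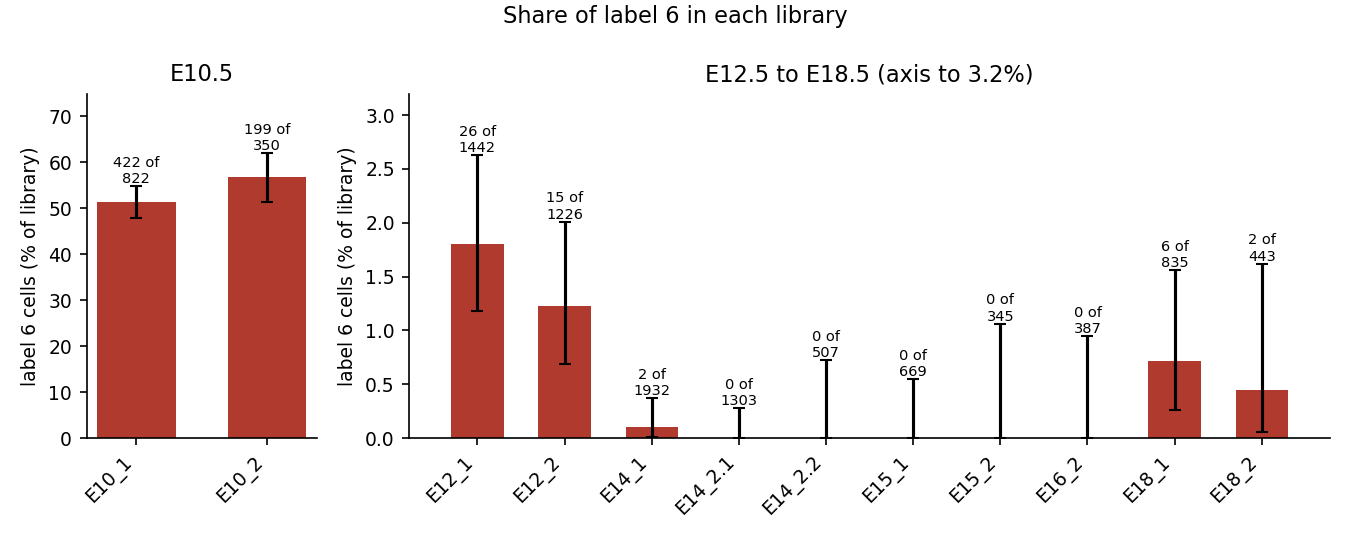
Share of label 6 among the cells of each library, with E10.5 on the left axis and later libraries on the right axis. Bars are percent of cells and error bars are exact 95% binomial intervals. The 2 E10.5 bars stand at 51.3% and 56.9%, and no later library passes 1.80%.

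The 7 marker genes proposed for these cells were checked against the other clusters, each level being a gene's UMIs per 1000000 UMIs (CPM) in the summed counts of a cluster. At E10.5 only 2 of the 7, Hmga2 and Ccnd1, were highest in label 6 among the 8 labels with at least 20 cells. Hmga2 had 962 CPM in label 6 of E10_1 and 1097 CPM in label 6 of E10_2, and its next label, 3, had 842 CPM. Ccnd1, the cyclin D1 gene that drives passage through G1, had 713 CPM in label 6 and 632 CPM in label 7, the next one. The other 5 markers were shared more widely.

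Otx2, a homeobox gene of the early forebrain and midbrain, had 128 CPM in label 6 and was below 371 CPM in label 14. Fndc3c1 had 107 CPM, and label 1 led with 184 CPM. Dlk1, an imprinted gene for a membrane protein with epidermal growth factor repeats, had 193 CPM with 4 labels above it, and label 8 led with 714 CPM. Lin28b also had 4 labels above it, with 58.4 CPM in label 6 and 235 CPM in label 8. Crabp2, a carrier of retinoic acid, had 431 CPM in label 6, against 1099 CPM in label 8. Sox2, which all neural progenitors share, had 716 CPM in label 6.

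**Figure D2:**
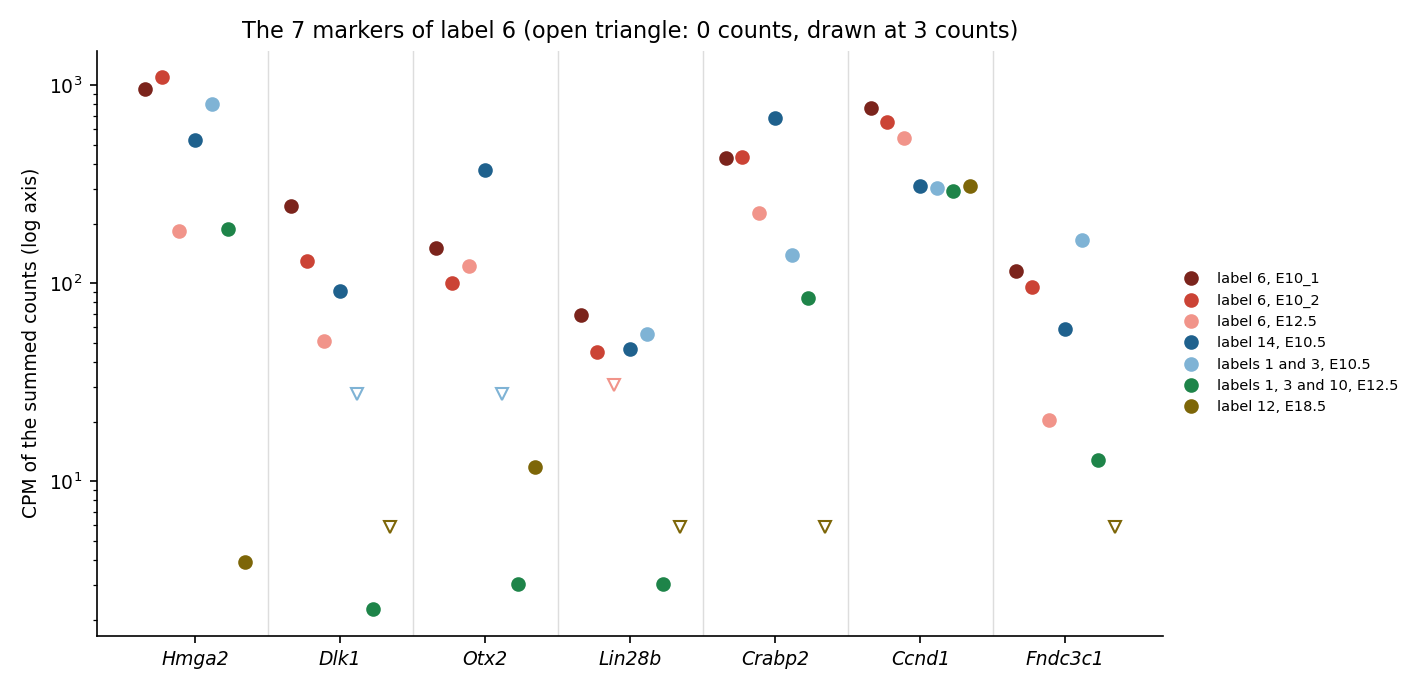
Levels of the 7 proposed markers in label 6 (2 libraries of E10.5, and E12.5), followed by label 14, labels 1 and 3, labels 1, 3 and 10, and label 12. The vertical axis is CPM of the summed counts on a log scale, and open triangles mark 0 counts drawn at the level of 3 counts. Hmga2 in label 6 sits at 962 and 1097 CPM at E10.5 and at 184 CPM at E12.5.

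Detection per cell was compared after each cell was thinned to 1000 UMIs, which left 358 cells of E10_1 and 196 of E10_2. The comparison cells were those of label 15 at E10.5, in which the connective tissue collagens Col1a2 and Col3a1 reached 1372 and 1755 CPM. Hmga2 was found in 55.3% and 59.7% of label 6 cells in the 2 libraries, against 24.0% of label 15 cells. Lhx2, a homeobox gene that sets cortical identity, was found in 31.3% and 28.6% of label 6 cells. It was found in 0 of 121 thinned label 15 cells, where 3 cells would be 2.48%. Before thinning, Lhx2 was found in 58.5% and 72.4% of label 6 cells, against 5 of 142 label 15 cells or 3.52%.

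Label 15 gives no background for Hmga2, Dlk1 or Crabp2, since it had 348, 233 and 470 CPM of them. Dlk1 was found in 19.6% of label 6 cells of E10_1 and 9.69% of those of E10_2, against 20.7% of label 15 cells. Crabp2 was found in 34.6% and 35.7% of label 6 cells, against 32.2% of label 15 cells. Before thinning, the Hmga2 shares were 78.2% and 90.5%, at median depths of 2892.5 and 5641 UMIs, and 50% in label 15 at a median of 3838 UMIs.

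Markers of other cell types were low in label 6 at E10.5. The 10 mesenchymal genes summed to 61.4 CPM, against 4920 CPM in label 15. Endothelial genes summed to 8.76 CPM, microglial genes to 0.730 CPM, erythroid genes to 59.5 CPM, surface ectoderm genes to 11.3 CPM, optic vesicle genes to 4.75 CPM and Cajal-Retzius genes to 19 CPM. Col1a2 and Col3a1 stood at 4.38 and 1.83 CPM in label 6.

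Label 14 was the other large neural cluster of E10.5 (175 cells), and its cells carried genes of the cortical hem and roof plate, the dorsal midline tissue that sends Wnt and BMP signals into the cortex. Genes counted as apart where their CPM differed at least 2-fold and reached 50 in 1 of the sums or more. Of 4417 genes that reached it, 213 (4.82%) were apart, 61 higher (1.38%) and 152 lower (3.44%) in label 6. A gene under 50 CPM in 1 sum was compared only through the other sum, and could only be lower in the first. This holds for each count over a list below. Of 17 hem and roof genes 7 could be compared, and those 7 were lower, with a median log2 ratio of -5.26, against 0.00 over all genes compared. They were Rspo2, Wnt8b, Rspo3, Rspo1, Id1, Id3 and Bmp4. All but Id3 were under 50 CPM in label 6. They were thus compared only through label 14 and could only come out lower, so the count and the sign of the median follow largely from the filter. The filter does not set the size of the median.

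Rspo3, a secreted amplifier of Wnt signals, had 32.3 CPM in label 6 of E10_1 and 25.3 CPM in label 6 of E10_2, against 1126 and 1108 CPM in label 14 of the same libraries. Wnt8b, a Wnt ligand of the hem, had 14.5 and 12.3 CPM in label 6, against 658 and 702 CPM in label 14. Rspo2 was counted 3 times in label 6 and 343 times in label 14, a level 382-fold lower (interval 130 to 1864). For each of these genes the labels did not overlap between libraries, but the genes were named for their ratios in the same counts. The share of all genes without overlap was not computed. Id3, a target of BMP signals, had 185 and 123 CPM in label 6, against 1817 and 1077 CPM in label 14. Bmp4 had 2 counts in label 6 and 43 in label 14, a ratio of 0.0139 (0.00163 to 0.0534). Sulf1, which trims heparan sulfate chains, had 7 counts or 2.56 CPM in label 6, against 279 CPM in label 14, and Wls, needed for Wnt secretion, had 35.4 CPM against 500 CPM.

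Patterning genes divided the same 2 clusters. Of 8 early forebrain genes compared, 7 were lower in label 6 and none higher. Zic1, a zinc finger gene of the dorsal midline, had 104 and 72.8 CPM in label 6, against 428 and 504 CPM in label 14. Zic4 had 44.2 and 28.6 CPM against 244 and 344 CPM, and Otx2 had 151 and 99.7 CPM against 373 and 368 CPM. The FGF ligands of the rostral patterning center were also lower: Fgf8 had 1.83 CPM in label 6 and 84.3 CPM in label 14, and Fgf17 had 4.02 CPM against 72.1 CPM. Lhx5, a gene of the hem and its neurons, had 12.4 CPM against 127 CPM.

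Of 13 cortical patterning genes compared, 3 were higher and 1 lower in label 6, with a median log2 ratio of -0.40 against 0.00 over all genes. Among the named genes that were higher in label 6, Meis2, a homeobox gene, had 304 and 377 CPM in label 6, against 60.6 and 58.8 CPM in label 14. Lmo1, a LIM-only transcription cofactor, had 120 and 94.8 CPM against 6.06 and 6.19 CPM, which was the highest ratio among the named genes (17.8-fold, 7.52 to 55.1). Nr2f1, which patterns the cortex along its rostrocaudal axis, had 257 and 258 CPM against 62.6 and 92.8 CPM, and Sfrp1, a secreted Wnt antagonist, had 1281 and 1031 CPM against 367 and 303 CPM. Mt1, a metallothionein, had 109 CPM against 7.33 CPM, Nell2 had 103 CPM against 11.0 CPM, and Hs6st2, a heparan sulfate sulfotransferase, had 145 CPM against 24.4 CPM. The labels kept apart in both libraries for all of these genes, which were named for their ratios in the sum of the same libraries. How many of all genes keep apart in this way was not computed.

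Cell cycle genes separated the 2 clusters little. None of 40 S phase genes and none of 47 G2 and M phase genes was 2-fold apart, with medians of 0.36 and 0.00 on the log2 scale. Of 16 neural progenitor genes compared, 4 were higher, 1 was lower and 11 were under 2-fold apart in label 6. Sox2 had 716 CPM in label 6 and 659 CPM in label 14. Emx2, a homeobox gene of the dorsal telencephalon, had 386 CPM in label 6 and 511 CPM in label 14. Id4, an inhibitor of basic helix-loop-helix factors, was among the 4 that were higher, with 797 CPM against 255 CPM, and Rfx4 was the 1 that was lower, with 32.5 CPM against 84.3 CPM.

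**Figure D3:**
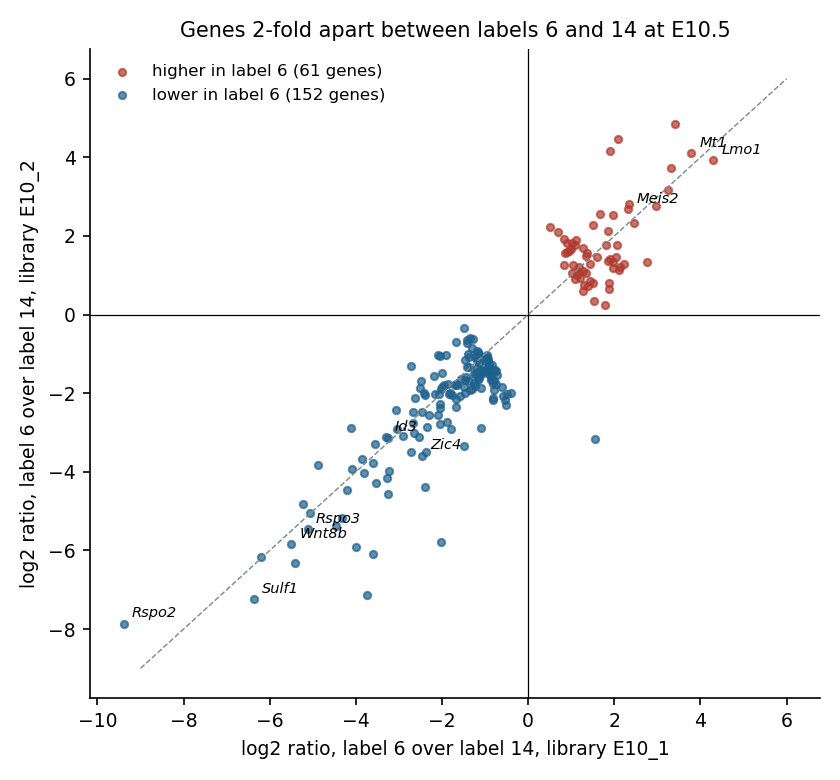
Ratios of label 6 over label 14 at E10.5 for the genes called 2-fold apart, library E10_1 on the horizontal axis and library E10_2 on the vertical axis (log2 of CPM ratios). Each point is 1 gene, and the dashed line marks equal ratios. Of 213 genes, 212 have the same sign in both libraries and 147 are 2-fold apart the same way in both. The genes were called on the sum of these 2 libraries, so the shared sign follows largely from the selection. The share over all genes compared was not computed.

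The 1 gene of opposite sign was Rgs16, named after its values were seen, with 17.8 and 17.2 CPM in label 6 of the 2 libraries, against 6.06 and 155 CPM in label 14. Of the 213 genes, 3 were also 2-fold apart between the label 6 cells of the 2 libraries.

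Labels 1 and 3 held few cells at E10.5 (62 cells with a median of 956 UMIs after 7 cells rich in haemoglobin were set aside), and their summed neural progenitor genes reached 7067 CPM, against 6406 CPM in label 6. Of 4464 genes compared, 466 (10.4%) were 2-fold apart, 235 higher (5.26%) and 231 lower (5.17%) in label 6, and 304 higher and 157 lower once scaled by the trimmed mean of M values (TMM). Hmga2 had 1023 CPM in label 6 and 803 CPM in labels 1 and 3 (1.27-fold, 1.03 to 1.60), which is under the 2-fold limit. Sox2 had 716 CPM against 784 CPM.

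Several of the genes higher in label 6 had no count at all in those 62 cells, where 3 counts would be 27.7 CPM. Cdkn1c, the imprinted inhibitor of cyclin-dependent kinases p57, had 251 CPM in label 6 and was 9.08-fold higher with the 0 set to 3 (lower limit 7.36). Set the same way, Dlk1 was 6.97-fold higher (lower limit 5.65) and Otx2 4.62-fold (lower limit 3.74). Gadd45g, a stress gene also switched on in committed neural progenitors, was 3.91-fold higher and Zic1 3.25-fold. Their presence was not particular to label 6, since Cdkn1c had 208 CPM in label 14 and 2511 CPM in label 7, and Gadd45g had 70.9 CPM in label 14 and 1508 CPM in label 7.

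Imprinted genes were 4 higher and 0 lower of 12 compared, with a median log2 ratio of 0.36 against -0.05 over all genes. Mest, an imprinted gene of the hydrolase fold, had 833 CPM in label 6 against 212 CPM, and the noncoding RNA Meg3 had 263 CPM against 120 CPM. Genes of G2 and M phase were 5 higher and 0 lower of 47. Hmmr, which acts at the spindle, had 264 CPM against 55.4 CPM (4.76-fold, 2.18 to 13). Lmo3, a LIM-only cofactor, was the lowest ratio, with 17.2 CPM in label 6 against 101 CPM.

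Label 6 cells of E10.5 were not alike, and the genes that varied most between them were found by the variance over the mean of thinned counts, for which a purely random draw gives about 1. The median over 2069 genes was 1.07 in E10_1 and 1.05 in E10_2. Cdkn1c led with 7.73 and 4.57. Gadd45g had 2.28 and 1.75, and the mitotic genes Cenpf, Cenpe, Top2a and Ube2c were also among the 10 highest. The most variable genes thus included mitotic genes beside Cdkn1c and Gadd45g.

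Cells were then divided by whether Dlk1 was detected after thinning, giving 89 cells with a Dlk1 UMI and 465 cells without, at median depths of 3676 and 4172 UMIs. The division is a description of 1 sample, and a cell without a UMI may still express the gene. Of 4303 genes, 116 (2.70%) were 2-fold apart.

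The genes described for this division were chosen after their values were seen. Dlx2, a homeobox gene of the ventral telencephalon and its inhibitory neurons, had 85.6 CPM in Dlk1 cells of E10_1 and 212 CPM in those of E10_2, against 13.4 and 8.16 CPM in cells without (11.4-fold, 6.89 to 19.3). Dlx1 had 104 and 450 CPM against 18.4 and 19.9 CPM. Olig2, a helix-loop-helix gene of ventral progenitors, had 74.4 and 84.8 CPM against 12.6 and 7.25 CPM. All 3 were higher in Dlk1 cells in each library.

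Cdkn1c had 729 and 645 CPM in Dlk1 cells, against 188 and 128 CPM in cells without (4.43-fold, 3.77 to 5.19). Gadd45g had 346 CPM against 67.0 CPM, and Hes6, which promotes neuronal differentiation, had 230 CPM against 82.7 CPM. The Notch ligand Dll1 had 82.7 CPM against 25.7 CPM. The neuron list summed to 1081 CPM in Dlk1 cells and 594 CPM in cells without, and its part in these values was not tested.

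Other genes were lower in the cells with Dlk1. Emx2 had 145 and 102 CPM in Dlk1 cells, against 439 and 420 CPM in cells without (0.307-fold, 0.227 to 0.406). Fezf2, a zinc finger gene of the forebrain and later of deep layer neurons, had 51.7 CPM against 138 CPM. Hmga2 itself had 510 and 534 CPM in Dlk1 cells, against 1061 and 1158 CPM in cells without. Hmga2 was thus lower in Dlk1 cells, at a level near the 528 CPM of label 14.

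Cell cycle genes differed little across this division, and mesenchymal markers were lower in the cells with Dlk1. Top2a had 1368 CPM in Dlk1 cells and 1364 CPM in cells without, and S phase genes summed to 11018 and 10498 CPM. Sox2 had 765 CPM against 713 CPM. Mesenchymal genes summed to 31.0 CPM in Dlk1 cells and 65.3 CPM in cells without, and 1 of the 89 Dlk1 cells was among the called doublets.

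**Figure D4:**
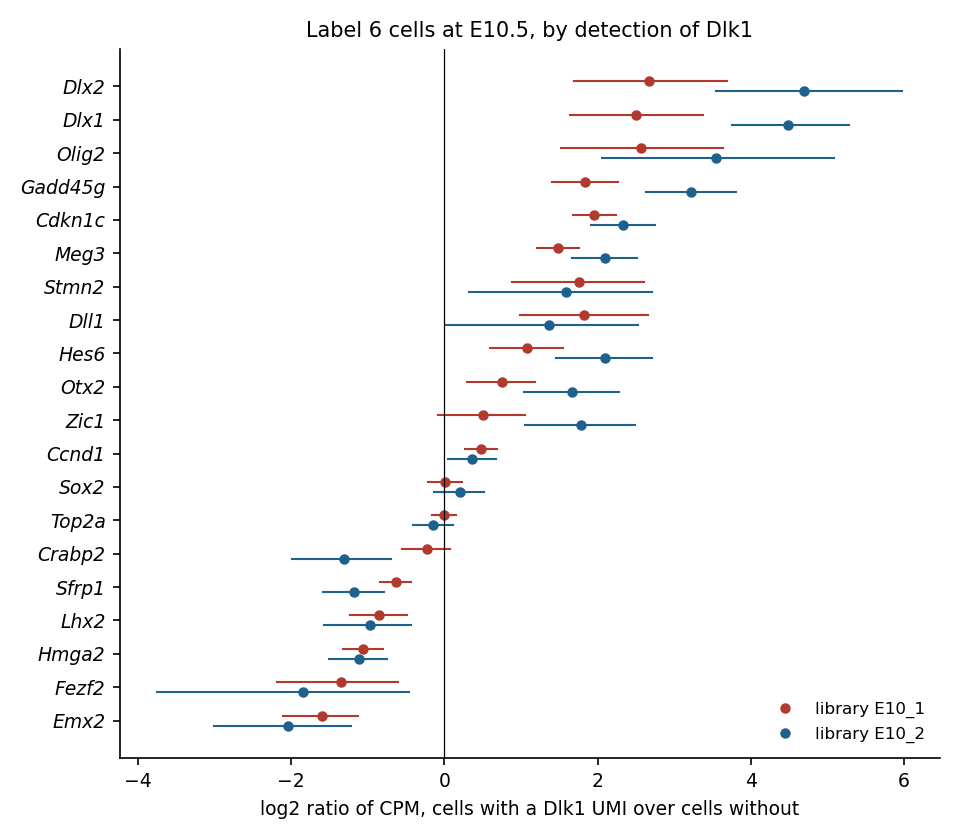
Label 6 cells of E10.5 with a Dlk1 UMI over those without, as log2 ratios of CPM for 20 genes, with 1 point per library and lines for 95% counting intervals. A gene with 0 counts on a side is not drawn. Dlx2, Dlx1 and Olig2 lie to the right in both libraries, and Emx2, Fezf2 and Hmga2 lie to the left in both.

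Dividing the same cells by Dlx1 or Dlx2 gave 25 cells with and 529 without, and 656 of 4502 genes (14.6%) were 2-fold apart. The 25 cells held 107905 UMIs in all, so counting error was larger than in the Dlk1 division. Gadd45g had 899 CPM in the Dlx cells and 74.1 CPM in the others, and Cdkn1c had 1362 CPM against 190 CPM. Dlk1 had 1010 CPM in the Dlx cells and 152 CPM in the others. Gsx2, a homeobox gene of the lateral ganglionic eminence, had 8 counts and 74.1 CPM in the Dlx cells, against 8.15 CPM in the others. Emx2 had 83.4 CPM against 400 CPM. The Dlx cells were thus low in Emx2 and high in Dlk1 and Cdkn1c, in both libraries. The neuron list summed to 1520 CPM in the Dlx cells and 628 CPM in the others, and its part in these values was not tested.

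Dividing by Otx2 (46 cells with, 508 without; 197 of 4379 genes, 4.50%, were 2-fold apart) showed a different arrangement. Nr2f1 had 56.4 CPM in Otx2 cells and 280 CPM in cells without, a difference that the Dlk1 division did not show (292 CPM against 256 CPM). Zic1 had 234 CPM in Otx2 cells and 75 CPM in cells without, and Cdkn1c had 798 CPM against 185 CPM. Hmga2 was again lower, with 425 CPM against 1078 CPM. G2 and M phase genes summed to 19326 CPM in Otx2 cells and 14639 CPM in cells without, and their part in these values was not tested.

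Dividing by Emx2 (141 cells with, 413 without) left 24 of 4184 genes (0.574%) 2-fold apart. Hmga2 had 1362 CPM in Emx2 cells and 891 CPM in cells without, and Lhx2 had 596 CPM against 377 CPM. Dlx1 had 12.1 CPM against 59.9 CPM and the optic and rostral forebrain gene Six3 had 10.7 CPM against 43.9 CPM. Olig2 had 3 counts in Emx2 cells and 50 in cells without (ratio 0.156, 0.0311 to 0.482). These divisions by single genes describe 1 sample and test nothing. The cells with a UMI held 107905 UMIs in the Dlx division, 230467 for Otx2, 386741 for Dlk1 and 746842 for Emx2. Counting error is larger in a smaller sum, so the shares of genes apart cannot be ranked across the divisions.

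Because Hmga2 and Emx2 were lower and Dlx2 was higher in cells with Dlk1, the sequence at their start sites is shown, each covering 250 bases before to 50 bases after the gene start on the gene's own strand (RefSeq, GRCm38.p6). Capitals mark the letters of the motifs TAATTA (a homeodomain core), CAGCTG and CAGATG (E-boxes), GGGCGG (a GC box) and TATAAA, read on both strands. The windows are chr10:120476420-120476719 on the minus strand for Hmga2, chr19:59458440-59458739 on the plus strand for Emx2 and chr2:71546705-71547004 on the minus strand for Dlx2.
Hmga2: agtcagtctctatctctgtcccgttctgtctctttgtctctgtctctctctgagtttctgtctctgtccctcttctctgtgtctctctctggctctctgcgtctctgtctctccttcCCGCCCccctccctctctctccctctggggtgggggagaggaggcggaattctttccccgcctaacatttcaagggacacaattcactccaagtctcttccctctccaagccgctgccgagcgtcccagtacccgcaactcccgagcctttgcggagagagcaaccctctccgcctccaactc
Emx2: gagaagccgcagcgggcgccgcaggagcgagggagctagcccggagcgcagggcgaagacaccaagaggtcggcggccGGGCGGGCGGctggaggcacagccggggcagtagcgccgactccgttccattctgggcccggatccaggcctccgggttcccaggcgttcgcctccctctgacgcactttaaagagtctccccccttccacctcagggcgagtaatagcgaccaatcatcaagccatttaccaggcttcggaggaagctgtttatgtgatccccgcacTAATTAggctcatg
Dlx2: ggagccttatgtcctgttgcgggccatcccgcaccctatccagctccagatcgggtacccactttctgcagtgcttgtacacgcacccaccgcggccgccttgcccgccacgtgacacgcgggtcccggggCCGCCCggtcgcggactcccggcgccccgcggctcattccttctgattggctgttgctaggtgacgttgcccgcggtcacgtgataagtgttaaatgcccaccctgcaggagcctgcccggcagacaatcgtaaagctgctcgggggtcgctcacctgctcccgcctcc

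Emx2 held 1 TAATTA and 2 overlapping GC boxes, and Hmga2 and Dlx2 held 1 GC box each. TAATTA occurs in 5.29% of 32851 windows of this length, the GC box in 35.7%, CAGCTG in 16.3%, CAGATG in 17.2% and TATAAA in 13.6%. The windows of Emx2 and Dlx2 were 64.3% and 66.3% G and C, and that of Hmga2 57.7%, against a median of 52.7% over all windows. A match describes letters only.

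At E12.5 the 41 label 6 cells, with 97699 UMIs in all, bore out the name of early neuroepithelial progenitors only in part. Among the 10 labels compared, Ccnd1 was highest in label 6, with 542 CPM against 354 CPM in label 1, the next one. Otx2 was also highest in label 6, as were Dlk1 and Fndc3c1 on 5 and 2 counts. Crabp2 ranked 2 and Hmga2 ranked 3, and Lin28b had 0 counts. A UMI of Dlx1, Dlx2 or Dlx5 was present in 19 of the 41 cells or 46.3% (30.7 to 62.6%), 12 of 26 in one library and 7 of 15 in the other. At E10.5 the same was true of 53 of 621 label 6 cells or 8.53%. Among labels 1, 3 and 10 at E12.5 it was true of 11 of 1163 cells or 0.946%, at a median of 1862 UMIs against 1705 in label 6. In label 8, where the inhibitory neuron gene Gad2 reached 1453 CPM, it was true of 37 of 50 cells.

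Against labels 1, 3 and 10 of E12.5, 779 of 4894 genes (15.9%) were 2-fold apart, 433 higher (8.85%) and 346 lower (7.07%) in label 6, and 322 higher and 464 lower with TMM scaling. The neural progenitor list summed to 6837 CPM in label 6 and 10531 CPM in labels 1, 3 and 10. The highest ratios belonged to genes of ventral forebrain and inhibitory neurons. Gad2, the enzyme that makes GABA, had 339 and 516 CPM in label 6 of the 2 E12.5 libraries, and 409 CPM over both, against 2 counts in labels 1, 3 and 10 (ratio 544, 141 to 4646). Dlx1 had 526 and 1083 CPM in label 6, and 747 CPM over both, against 4.89 CPM (153-fold, 84.0 to 300). Dlx5 had 123 CPM and no count in labels 1, 3 and 10, 109-fold higher with the 0 set to 3 (lower limit 75.6). Of 5 ventral forebrain genes compared 4 were higher, and Mbip, which borders Nkx2-1 in the genome, was lower. Genes under 50 CPM in labels 1, 3 and 10, such as Dlx1 and Dlx5, could only come out higher.

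Otx2 and Cdkn1c were higher in label 6 than in labels 1, 3 and 10 at E12.5. Otx2 had 123 CPM in label 6 against 3.01 CPM (40.8-fold, 15.3 to 115), and Cdkn1c had 154 CPM against 8.28 CPM (18.5-fold, 8.95 to 37.4). Dlk1 had 5 counts or 51.2 CPM against 2.26 CPM, and Crabp2 had 225 CPM against 83.9 CPM. Hmga2 did not differ beyond counting error, with 184 CPM in label 6 and 188 CPM in labels 1, 3 and 10 (0.979-fold, 0.576 to 1.56). The 19 label 6 cells with a Dlx UMI held 10 of the 12 Otx2 counts of label 6 and 12 of its 15 Cdkn1c counts. Cdkn1c was not particular to label 6, with 32 counts in 81206 UMIs of label 8 against 15 in 97699 UMIs of label 6.

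Genes of radial glia were lower in label 6 at E12.5, with 8 of 13 lower, 0 higher and a median log2 ratio of -1.18 against 0.06 over all genes. Aldoc, a glycolytic enzyme of glia, had 40.9 CPM in label 6 against 275 CPM. Rlbp1, a retinaldehyde binding protein, had no count in label 6 against 96.0 CPM, 3.13-fold lower with the 0 set to 3. Pax6 had 154 CPM against 424 CPM and Hes1, a Notch target, had 287 CPM against 677 CPM. Genes of neurons were 11 higher and 0 lower of 12, with a median of 1.81. Tubb3, a neuronal tubulin, had 379 CPM against 99.4 CPM, and Dcx, a microtubule protein of migrating neurons, had 102 CPM against 17.7 CPM.

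The E12.5 cells with and without Dlx genes differed in the other genes too. Otx2 had 204 CPM in the 19 cells with and 41.1 CPM in the 22 cells without. Hmga2 had 81.5 CPM against 288 CPM and Emx2 had 81.5 CPM against 391 CPM. Fabp7 had 652 CPM in cells with Dlx genes and 2344 CPM in cells without. Top2a had 3586 CPM against 1419 CPM, so the cells with Dlx genes were rich in mitotic RNA, and label 8 at the same stage had 24.6 CPM. Neurod6, a helix-loop-helix gene of cortical excitatory neurons, had 40.8 CPM against 638 CPM, and 31 of its 33 UMIs in label 6 came from 4 cells.

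**Figure D5:**
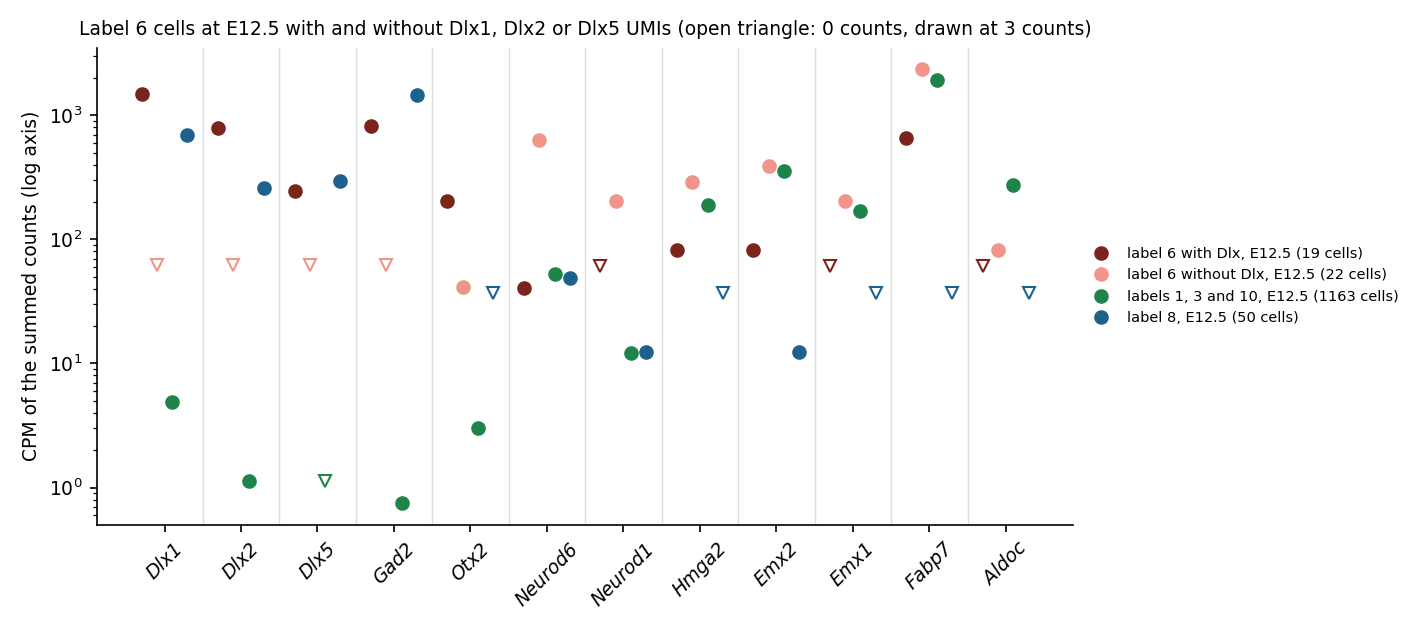
Levels of 12 genes at E12.5 in label 6 cells with a UMI of Dlx1, Dlx2 or Dlx5, in label 6 cells without, in labels 1, 3 and 10 and in label 8. The vertical axis is CPM of the summed counts on a log scale, and open triangles mark 0 counts drawn at the level of 3 counts. The cells with Dlx genes have Otx2 at 204 CPM, and the cells without have Fabp7 at 2344 CPM.

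Label 6 cells of E12.5 were set beside label 6 cells of E10.5. Of 4863 genes compared, 1021 (21.0%) were 2-fold apart, 625 higher (12.9%) and 396 lower (8.14%) at E12.5, and 405 higher and 610 lower with TMM scaling. Neurod6 and Neurod2 had 33 and 9 counts at E12.5 and none at E10.5. With the 0 set to 3 they were 308-fold (lower limit 237) and 84.1-fold higher. Gad2 had 409 CPM at E12.5 and 5.48 CPM at E10.5 (74.7-fold, 40.4 to 146), and Dlx1 had 747 CPM against 47.8 CPM. All 12 neuron genes compared were higher at E12.5, with a median of 2.03 against 0.13 over all genes. Those under 50 CPM at E10.5, such as Neurod6 and Neurod2, were compared only through E12.5 and could only come out higher. Between the 2 E10.5 libraries of label 6, only 7 neuron genes could be compared. Fabp7 had 1494 CPM at E12.5 and 396 CPM at E10.5.

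Genes that time early progenitors were lower at E12.5 in 5 of 7 and higher in 0, with a median of -1.48. Hmga2 had 204 and 155 CPM in label 6 of the 2 E12.5 libraries, against 962 and 1097 CPM in label 6 of the 2 E10.5 libraries (0.180-fold, 0.107 to 0.285). The libraries of the stages did not overlap for Hmga2, and the share of all genes without overlap was not computed. Igf2bp1, an RNA-binding protein of fetal tissue, had 154 CPM at E12.5 and 456 CPM at E10.5, and Igf2bp2 had 61.4 CPM against 195 CPM. Fndc3c1 had 2 counts at E12.5 (ratio 0.192, 0.0231 to 0.700). Lin28b had 0 counts at E12.5, where 3 counts would be 30.7 CPM, and 58.4 CPM at E10.5. Otx2 did not differ beyond counting error, with 123 CPM at E12.5 and 128 CPM at E10.5 (0.961-fold, 0.492 to 1.70).

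Glycolytic genes were 7 lower and 1 higher of 11 at E12.5, with a median of -1.11. Ldha, lactate dehydrogenase, had 205 CPM at E12.5 and 635 CPM at E10.5 (0.322-fold, 0.196 to 0.499), with each E12.5 library below each E10.5 library. Eno1, enolase, had 153 CPM in E12_1 and 181 CPM in E12_2, against 196 CPM in E10_1 and 686 CPM in E10_2, so that it was under 2-fold apart between the libraries with suffix 1. Of the 1021 genes, 44 were also 2-fold apart between the 2 E10.5 libraries.

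The 8 label 6 cells of E18.5 shared almost none of the markers. Hmga2, Dlk1, Otx2, Lin28b, Crabp2 and Fndc3c1 had 0 counts in 21540 UMIs, in which 3 counts are 139 CPM, and Ccnd1 had 139 CPM. A Dlx UMI was present in 7 of the 8. Dlx1 had 1439 CPM and Gad2 had 836 CPM, while Top2a had 3250 CPM. The 8 cells thus carried mitotic and inhibitory neuron genes, and the name of label 6 went against their markers.

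Label 12 of E18.5 (161 cells) was taken as the late progenitor cluster for a comparison across the whole period, in which label and stage cannot be told apart. Of 4838 genes compared, 1276 (26.4%) were 2-fold apart, 537 higher (11.1%) and 739 lower (15.3%) in label 6 of E10.5, and 798 higher and 611 lower with TMM scaling. Hmga2 had 1023 CPM in label 6 and 2 counts in label 12 (ratio 261, 72.3 to 2159). Crabp2 had 431 CPM and no count in label 12, 73.5-fold higher with the 0 set to 3 (lower limit 59.7). Dlk1, also without a count there, was 32.9-fold higher (lower limit 26.6). Igf2bp1 had 456 CPM in label 6 and 29.3 CPM in label 12 (15.5-fold, 9.38 to 27.8), and 6 of 7 timing genes were higher with none lower. Those under 50 CPM in label 12, such as Hmga2 and Igf2bp1, could only come out higher.

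The 18 genes of radial glial onset that could be compared were lower in label 6 of E10.5 than in label 12, with a median of -5.49 against 0.11 over all genes. Members under 50 CPM in label 6, such as Tnc and Slc1a3, were compared only through label 12 and could only come out lower. Between the 2 E10.5 libraries of label 6, only 7 genes of this list could be compared. Tnc, the matrix protein tenascin C, had no count in label 6 and 1144 CPM in label 12, 1044-fold lower with the 0 set to 3 (lower limit 847). Olig1, of the oligodendrocyte lineage, had 2 counts in label 6 and 823 CPM in label 12 (ratio 0.000887, 0.000107 to 0.00322). Fabp7 had 396 CPM against 13362 CPM and Slc1a3 had 16.4 CPM against 1528 CPM. Sox2 was under 2-fold apart, with 716 CPM in label 6 and 640 CPM in label 12.

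S phase genes were 27 higher and 0 lower of 40, with a median of 1.24, and summed to 10575 CPM in label 6 and 4661 CPM in label 12. Nasp, a histone chaperone, had 2454 CPM against 943 CPM. G2 and M phase genes were 5 higher and 0 lower of 47. FGF pathway genes were 7 lower and 0 higher of 8, among them Spry2, a feedback inhibitor, with 3.65 CPM against 172 CPM, and Etv4, with 1.83 CPM against 64.5 CPM. Genes under 50 CPM in label 6, Spry2 and Etv4 among them, were compared only through label 12 and could only come out lower. Between the 2 E10.5 libraries of label 6, only 2 genes of the FGF list could be compared. Immediate early genes, which many stimuli induce within minutes, were 6 lower and 0 higher of 10, with Fos at 73.8 CPM in label 6 and 964 CPM in label 12.

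Between the label 6 cells of the 2 E10.5 libraries, 192 of 4249 genes (4.52%) were 2-fold apart, 33 higher (0.777%) and 159 lower (3.74%) in E10_1, and 13 higher and 189 lower with TMM scaling. Among the lowest, Ftl1, ferritin light chain, had 9.90 CPM in E10_1 and 1328 CPM in E10_2, and Nme2, Gpx4, Ppia and Pgk1 were also low in E10_1. Hmga1 had 18.5 CPM against 132 CPM. Over all cells, Ftl1 had 13.5 to 25.9 CPM in the 5 libraries with suffix 1 and 1425 to 2021 CPM in the 7 other libraries, so that this gap runs through all stages with both kinds of library. Levels of these genes are uncertain in label 6. Dlk1 had 244 CPM in E10_1 and 129 CPM in E10_2, the largest gap among the 7 markers, and none of the 7 was 2-fold apart.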

How the data were processed

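The authors deposited 1 table of whole UMI counts, with 21862 genes as rows and 10261 cells as columns, and a second table that gives each cell a library and a cluster number (values of kind other, with no unit). The labels' protocols name Drop-Seq tools 3.1, and the submitters' processing notes name the mm10 genome and Seurat 3.1.5. Aligner, gene annotation and strand setting are not given in the sources used here. The deposited cells had 501 genes or more each. The 12 libraries, of 1287096 to 4009506 UMIs, were matched to 7 samples by name. Library E14_2.1, which holds no label 6 cell, was taken as the second library of the first E14.5 sample because the labels list E14_2.2 for the other.

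Counts of the cells of a label and sample were summed where at least 20 cells were present (fewer only for levels), without 13 cells over 2% haemoglobin UMIs, none of them in label 6. Levels are CPM of the plain total. Ratios have exact conditional binomial 95% intervals, a count of 0 was set to 3, and a gene counted as apart at 2-fold with 50 CPM in either sum. A list gene low in one sum could be compared only where the other sum reached this level, so counts over a list describe the genes compared, not the whole list. The fold calls were tested on simulated data. Doublets called by Scrublet at an expected 5% (95 cells) were left out in an alternative only. Detection and divisions of cells used counts thinned to 1000 UMIs, and CPM in the divided groups used all their UMIs. The genes named are the 7 markers, the 10 highest and 10 lowest ratios per comparison with at least 100 CPM in either sum (mitochondrial, ribosomal, haemoglobin, sex-linked and unnamed genes left out), of which the text describes a selection, and members of 30 gene lists holding 500 genes, 495 of them in the files. The members, lists and divisions were chosen with earlier results of these data known. Motifs and start sites come from RefSeq on GRCm38.p6. Python 3.11.15, scipy 1.17.1, scanpy 1.11.5 and, for TMM factors, edgeR 4.0.16 in R 4.3.3 were used. Some genes of these lists are not reported here.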

Additional observations from a re-analysis of the deposited data

Results flagged for a closer look

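Among the named genes, 3 lay on opposite sides of labels 1, 3 and 10 at E12.5 and of labels 1 and 3 at E10.5. Recql, a DNA helicase, had a log2 ratio of label 6 over the other labels of 1.878 at E12.5 and -1.59 at E10.5. Scai had 1.065 at E12.5 and -1.97 at E10.5. Tmem222 had 1.258 at E12.5 and -1.57 at E10.5. The difference between the stages was not tested, since each stage has 1 sample, and the clusters set against label 6 were not the same ones at both stages. At E10.5 the counts in labels 1 and 3 were 13 for Recql, 11 for Scai and 12 for Tmem222.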

How the results depend on the processing

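The 1571 ratios of named genes under all alternatives kept their direction, over 151 genes and comparisons. These genes were named in large part for their extreme ratios, and the alternatives reuse the same cells, so a reversal was unlikely from the start. The numbers of genes apart moved with the thresholds. Against label 14 (213 genes) they were 106 at 3-fold, 91 at 100 CPM, 1947 with no low count filter, 363 in cells with at most 5% mitochondrial UMIs and 365 in the libraries with suffix 2. Against labels 1 and 3 at E10.5 (466) they were 123 at 3-fold and 123 at 100 CPM, 1911 with no filter, 222 where the interval left out a ratio of 1, 1088 with the deeper sum thinned, 786 by means of per-cell shares, 1042 at the 5% mitochondrial limit, 806 in suffix 1, 1040 for label 1 alone and 1057 for label 3 alone. At E12.5 (779) they were 278 at 3-fold, 272 at 100 CPM, 2303 with no filter, 420 by interval, 1475 thinned and 1225 with the cells that had a Dlx UMI left out, an alternative chosen after seeing the data. Between label 6 at E12.5 and at E10.5 (1021) they were 369, 415, 2575, 620 and 1665 under the first 5 of these settings. Against label 12 (1276) they were 576 at 3-fold, 667 at 100 CPM, 4017 with no filter and 2247 at the 5% mitochondrial limit. Between the E10.5 libraries (192) they were 96, 126 and 1626. The share of label 6 was 56.9% in E10_2 alone, 0 in the second library of the first E14.5 sample, and 1.23% at E18.5 at the 5% mitochondrial limit. Where fewer genes, cells or UMIs enter by construction the number moves with them, and otherwise the cause was not tested.

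TMM scaling moved all log2 ratios by 0.10 against label 14, 0.13 against labels 1 and 3 at E10.5, -0.15 at E12.5, -0.23 between the stages of label 6, 0.18 against label 12 and -0.17 between the libraries. Suffix 2 alone was not run for the comparisons with labels 1 and 3 at E10.5 and with label 6 at E12.5, which had 12 and 15 cells there. No paired analysis was possible because only the E14.5 stage has a second sample and no result comes from a test.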

Other observations

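Several imprinted and signalling genes differed between label 6 of E10.5 and the later cells. Plagl1, an imprinted zinc finger gene, had no count in label 6 at E12.5 and 94.6 CPM in label 6 at E10.5. It was 3.08-fold lower at E12.5 with the 0 set to 3. Peg10, an imprinted gene derived from a retrotransposon, had 104 CPM in label 6 of E10.5 and 2 counts in label 12 of E18.5 (ratio 26.5, 7.27 to 220). Igdcc3, an immunoglobulin superfamily receptor, had 218 counts in label 6 of E10.5 and 1 count in label 12 of E18.5 (ratio 40.7, 7.23 to 1615). Lef1, a transcription factor of the Wnt pathway, had 2 counts in label 6 at E12.5 and 94.6 CPM in label 6 at E10.5 (ratio 0.216, 0.0261 to 0.790).

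Tjp1, the junction protein ZO-1, had 1 count in label 6 at E12.5 and 70.8 CPM in label 6 at E10.5 (ratio 0.144, 0.00364 to 0.814). These genes were picked from the lists after their values were seen.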
